A study of Mus musculus with 2 samples.

Results

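Cluster 13 is a small group of mammary tumor cells that the authors' deposited annotation sets apart from the rest of 2 luminal-labelled mouse tumors. It held 73 of the 3829 annotated cells of mouse 1 (1.91%, exact 95% interval 1.50 to 2.39%) and 192 of the 5330 of mouse 2 (3.60%, 3.12 to 4.14%), or 265 of 9159 cells in all. Its members were every cell with that cluster number, and they were set against the other tumor cells, meaning all annotated cells outside clusters 6 and 13 (3496 cells in mouse 1 and 4971 in mouse 2). Cluster 6, which the study treats as a mixed luminal and basal population, was left out of that reference. The genotype of both animals was Krt8-CreERT/Rosa26-mTmG/MMTV-PyMT. In it the polyoma middle T oncogene runs from the MMTV promoter and tamoxifen lets Cre switch Krt8-expressing cells and their descendants to GFP. Each mouse received tamoxifen at 150 mg/kg in corn oil on 3 days in week 5 and 3 days in week 6. Tumors were taken at 1.5 cm3, and live GFP-positive cells without CD31 or CD45 were sorted and sequenced as 1 library per mouse, so the sort itself keeps out most endothelial and blood cells and any cell that was not labelled. There is 1 condition, each mouse is 1 replicate, and genotype, treatment and sort were the same for both sides of every comparison. The libraries shared 20 cell barcodes.

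Mature luminal cells, also called hormone-sensing cells, line the ducts of the mammary gland and carry the receptors for estrogen, progesterone and prolactin. Foxa1 opens chromatin for the estrogen receptor in these cells, Cited1 is a coactivator that binds the same receptor, and the cells answer hormones by releasing ligands such as Areg, Wnt4 and Rankl (Tnfsf11) that act on neighbours. The other luminal branch, the luminal progenitors and the alveolar cells they give rise to, depends on Elf5 and Kit and makes milk and antimicrobial proteins.

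The label was set beside the 6 markers given for the cluster and the signature scores that the authors deposited for each cell, which are the scores the study named the cluster from, so both describe the label and cannot check it. The authors drew the clusters from the expression of these same cells in both mice, so every difference between cluster 13 and other cells below is a description of size and no test, and no p-value is attached to it. Scores ran from 0 to 1, and the mature luminal score had a median of 1.00 in cluster 13 of each mouse (lowest cell 0.832 in mouse 1), against 0.0645 and 0.0757 in the other tumor cells. It passed 0.5 in 73 of 73 and 192 of 192 cells of cluster 13, against 494 and 803 of the other tumor cells. The luminal progenitor score passed 0.5 in 2 and 21 cells of cluster 13 and the basal score in 11 and 32. Of the hormone receptors, Prlr and Pgr were higher in cluster 13 and Esr1 was not, as given below. At least 4 of the 6 markers had a UMI (unique molecular identifier, 1 counted transcript) in 59 (80.8%) and 107 (55.7%) cells of cluster 13, against 4 (0.114%) and 8 (0.161%) of the other tumor cells, when all UMIs of a cell were counted. At an equal depth of 2000 UMIs these were 26 of 72 (36.1%) and 49 of 183 (26.8%) cells, against 1 of 3020 and 0 of 4133. The median cell held 15278 and 11818 UMIs in cluster 13, against 15295 and 9369 in the other tumor cells, and mitochondrial transcripts made up a median of 5.07% and 4.56% of UMIs, against 6.27% and 5.51%. After each cell was thinned to 2000 UMIs the median number of genes was 941.5 and 970 in cluster 13 and 988 and 985 in the other tumor cells.

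UMIs were added up over the cells of each group within a mouse. The sums came to 1219562 (mouse 1) and 2417170 (mouse 2) in cluster 13, against 53999755 and 52965223 in the other tumor cells. Levels below are CPM (a gene's UMIs for every 1000000 in the sum) after TMM scaling, with mouse 1 before mouse 2. A gene counts as higher or lower when its ratio, with 5 CPM added to each level, was at least 2-fold in the same direction in each mouse, and log2 fold changes with standard errors come from edgeR's fit over both mice. Of the 7586 genes with a mean of at least 10 CPM over the 4 sums, 405 (5.34%) were higher in cluster 13 and 343 (4.52%) were lower. A 4-fold difference in each mouse was reached by 128 higher and 43 lower genes, and a 16-fold one by 25 higher genes and 1 lower gene. The median log2 fold change over all genes was -0.02. Just inside the 2-fold limit stood Hdac11, with a smaller log2 ratio of 1.001, and just outside it Il4ra, with 0.999. On the lower side Tesk1 had -1.001 and Hbegf -0.998.

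**Figure D1:**
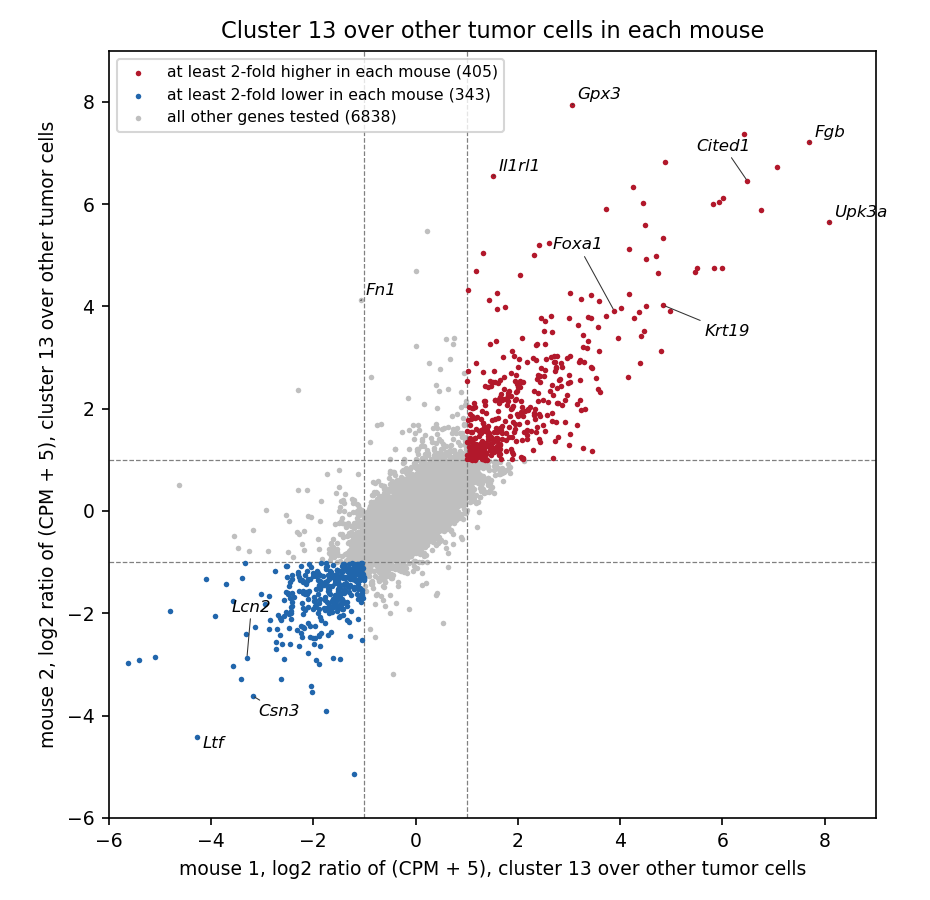
Log2 ratio of CPM plus 5, cluster 13 over the other tumor cells, in mouse 1 (horizontal axis) and mouse 2 (vertical axis) for 7586 genes, 1 point per gene, with dashed lines at 2-fold. The 405 higher genes (red) and 343 lower genes (blue) lie beyond the lines in both mice, and Gpx3, Il1rl1 and Fn1 lie far above the diagonal because their ratio was larger in mouse 2.

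All 6 markers were among the higher genes; since they mark the cells that were clustered, this describes the label and adds no evidence for it. Krt19, a keratin of simple epithelium (chr11:100140810-100148665, minus strand, GRCm38), had 6426 and 7108 CPM in cluster 13, against 218 and 433 CPM in the other tumor cells. Prlr, the prolactin receptor (chr15:10177238-10349180, plus strand), had 729 and 1229 CPM, against 72.4 and 65.1 CPM. The lower of the cluster 13 values stood far above the higher of the other tumor cells for both genes, with log2 fold changes of 4.46 ± 0.25 (SE) for Krt19 and 3.79 ± 0.26 for Prlr. Foxa1 (chr12:57540628-57546916, minus strand) had 103 and 124 CPM in cluster 13, against 2.33 and 3.58 CPM in the other tumor cells. Cited1 (chrX:102247381-102252181, minus strand) had 595 and 529 CPM, against 1.67 and 1.11 CPM. Both were low in the sum of the other tumor cells and less so in single clusters: in plain CPM Foxa1 had 15.7 and 30.0 in cluster 10, and Cited1 21.9 in cluster 5 of mouse 2. They had log2 fold changes of 5.28 ± 0.24 for Foxa1 and 8.67 ± 0.25 for Cited1.

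The other 2 markers are not classical mammary genes. Fgb, the beta chain of fibrinogen, a clotting protein made mainly in liver (chr3:83040141-83049863, minus strand), had 1111 and 857 CPM in cluster 13, against 0.364 and 0.826 CPM in the other tumor cells. Upk3a, a uroplakin of the bladder lining's surface plaques (chr15:85017141-85022547, plus strand), had 1437 and 260 CPM, against 0.291 and 0.287 CPM. Neither gene's groups came close to overlapping, and their log2 fold changes were 10.70 ± 0.41 and 11.16 ± 0.53, although Upk3a in cluster 13 of mouse 1 stood well above that of mouse 2. With all UMIs of each cell counted, an Upk3a UMI was found in 53.4% and 26.0% of cluster 13 cells and an Fgb UMI in 56.2% and 40.1%. The UMIs were unevenly spread over these cells: the 10 cells with the most UMIs held 67.5% and 64.9% of the Upk3a UMIs and 65.6% and 49.7% of the Fgb UMIs. For Krt19 the same measure gave 27.2% and 13.1%, and for Foxa1 43.0% and 21.9%.

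**Figure D2:**
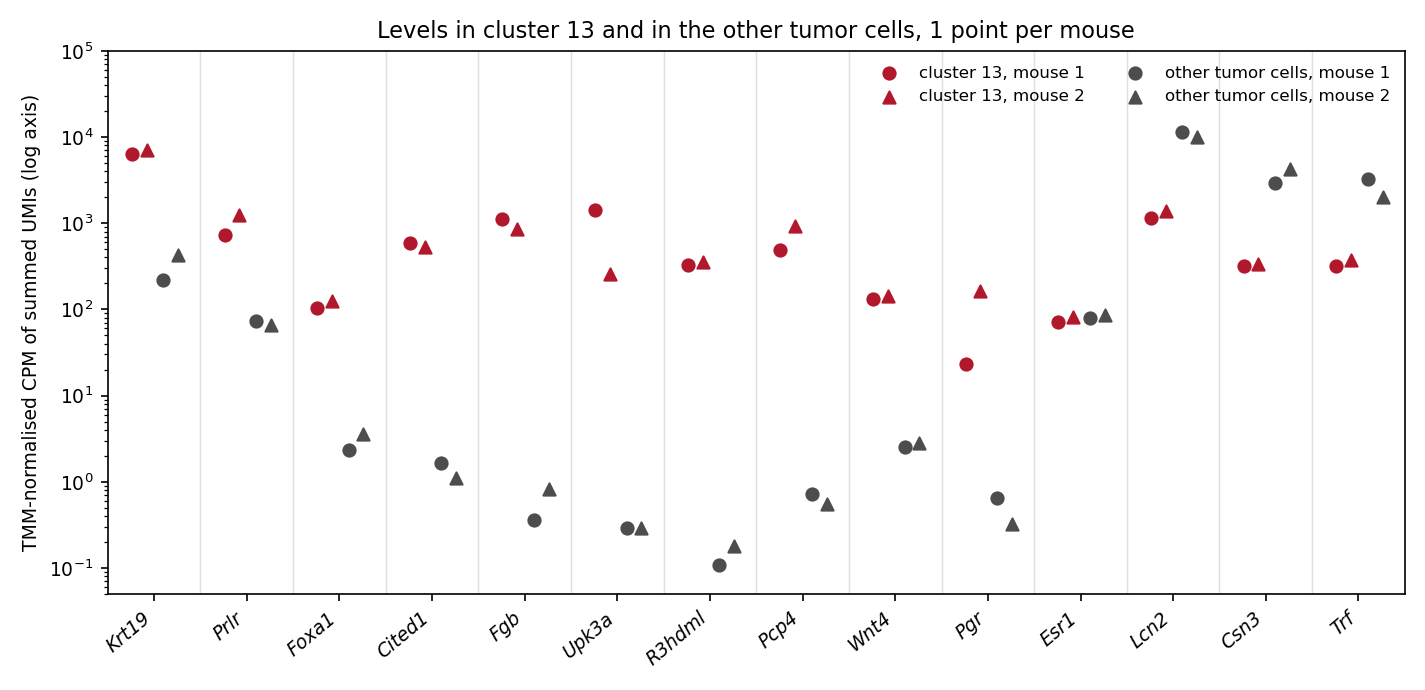
TMM-normalised CPM of summed UMIs on a log axis for 14 genes, with cluster 13 (red) left of the other tumor cells (grey), mouse 1 as circles and mouse 2 as triangles. The first 10 genes sit higher in cluster 13 in both mice, Esr1 sits at about the same level on both sides (71.6 and 81.7 against 79.0 and 86.1 CPM), and Lcn2, Csn3 and Trf sit lower in cluster 13.

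Shares of cells show the same genes cell by cell, at 2000 UMIs per cell so that depth is equal (72 and 183 cells of cluster 13, 3020 and 4133 other tumor cells). Exact 95% intervals are in brackets, and they cover counting error only. Krt19 had a UMI in 100% of cluster 13 cells in each mouse (lower limits 95.006% and 98.004%), against 18.3% and 33.2% of the other tumor cells. Prlr had one in 65.3% (53.1 to 76.1%) and 77.0% (70.3 to 82.9%), against 13.4% and 12.1%. Cited1 was found in 52.8% (40.7 to 64.7%) and 37.2% (30.1 to 44.6%), against 0.464% and 0.0968%. At this depth the keratin was thus found throughout, the receptor in most cells, and the coactivator in a part of them. Foxa1 had a UMI in 19.4% (11.1 to 30.5%) and 26.8% (20.5 to 33.8%) of cluster 13 cells, against 0.464% and 0.677% of the other tumor cells. Fgb was found in 38.9% and 32.8%, against 0.0331% and 0.0968%, and Upk3a in 40.3% and 15.3%, against 0.0662% and 0.0242%. The shares in the other tumor cells, at the same depth, hold both true expression and free RNA, which were not told apart, and all 6 shares of cluster 13 lay above them in each mouse. Shares at 2000 UMIs miss cells with low levels. With all UMIs of each cell counted, Prlr was found in 97.3% and 92.2% of cluster 13 cells, against 50.3% and 37.4%. Cited1 was then found in 78.1% and 55.7%, against 1.32% and 0.704%, and Foxa1 in 75.3% and 65.6%, against 2.89% and 2.41%.

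**Figure D3:**
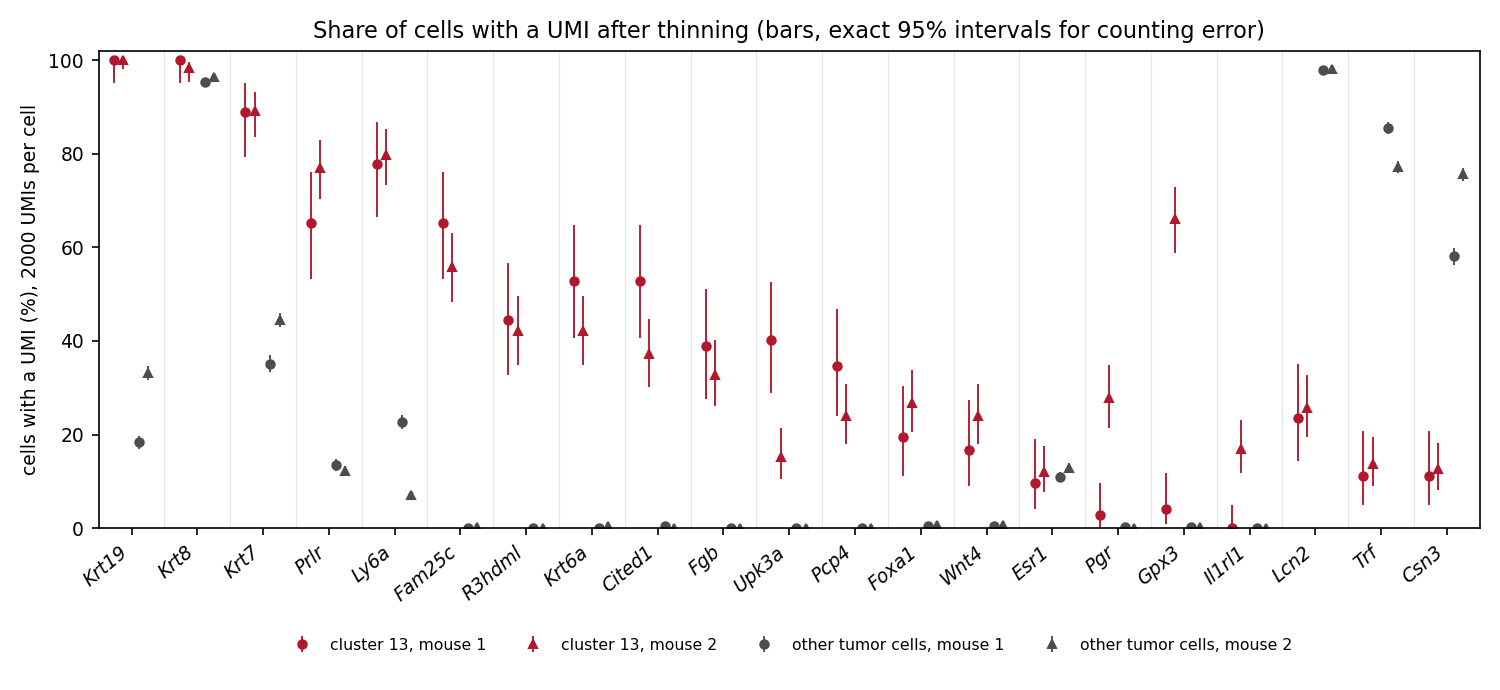
Share of cells with a UMI of each gene after thinning to 2000 UMIs per cell, with cluster 13 (red) left of the other tumor cells (grey), mouse 1 as circles, mouse 2 as triangles, and bars for the exact 95% interval of counting error. Krt19 and Krt8 reach nearly every cell of cluster 13, most marker genes reach a part of it, and Lcn2 reaches 23.6% and 25.7% of cluster 13 cells against 98.0% and 98.1% of the other tumor cells.

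Because Foxa1, a forkhead factor, is among the markers given for the cluster, the start regions of the markers were searched for the forkhead core TGTTTAC on both strands, in RefSeq windows of 250 bases before to 50 bases after each start site (GRCm38.p6). Of the markers, Foxa1 itself and 1 of 3 Prlr windows held it, and these windows are printed because they hold the core. Both lie inside the spans given above for their genes. The Foxa1 window is chr12:57546062-57546361 (minus strand) with the core at -141 in the reverse orientation, and the Prlr window is chr15:10223656-10223955 (plus strand) with the core at -215, where the start site is 0. Capitals mark the core.
Foxa1: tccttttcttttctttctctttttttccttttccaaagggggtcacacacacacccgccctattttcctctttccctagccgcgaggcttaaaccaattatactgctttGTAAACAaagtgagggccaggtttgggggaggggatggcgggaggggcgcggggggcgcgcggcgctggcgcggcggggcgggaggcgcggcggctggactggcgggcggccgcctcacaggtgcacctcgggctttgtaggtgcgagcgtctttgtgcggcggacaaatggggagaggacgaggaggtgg
Prlr: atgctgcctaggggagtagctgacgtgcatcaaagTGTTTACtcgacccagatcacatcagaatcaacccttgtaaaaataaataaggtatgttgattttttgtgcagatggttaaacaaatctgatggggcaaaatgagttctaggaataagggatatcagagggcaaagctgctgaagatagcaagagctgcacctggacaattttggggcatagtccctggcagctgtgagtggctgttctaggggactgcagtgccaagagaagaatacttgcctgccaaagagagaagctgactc
The core stood in 14 of the 293 higher genes with a window (4.78%), 11 of 267 lower genes (4.12%), 184 of 6075 genes tested (3.03%) and 1095 of all 27025 genes of the table (4.05%). The GATA core AGATAA stood in 8.19% of higher genes, 7.87% of lower genes, 6.95% of genes tested and 12.7% of all genes. Higher and lower genes held either core about equally often, and a match is a description of letters, not of binding.

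Hormone receptors and luminal transcription factors differed among themselves. Of 15 listed members that passed the filter, 7 were higher (Prlr, Pgr, Foxa1, Cited1, Myb, Elf3 and Stat5a) and 3 were lower (Xbp1, Tfap2c and Nr3c1), with a median log2 fold change of 0.62 against -0.02 over all genes. Over all genes tested 5.34% were higher and 4.52% lower. Pgr, the progesterone receptor, had 23.02 and 165 CPM in cluster 13, against 0.655 and 0.323 CPM in the other tumor cells. Both cluster 13 values stood above both others, and that of mouse 2 was the higher (log2 fold change 7.22 ± 0.75). Stat5a, which carries the prolactin signal to the nucleus, had 23.9 and 62.2 CPM, against 5.88 and 7.51 CPM. Myb, a transcription factor that estrogen induces in human breast cancer cells, had 22.2 and 44.3 CPM, against 4.24 and 5.93 CPM. Esr1, the estrogen receptor itself, behaved otherwise, with 71.6 and 81.7 CPM in cluster 13, against 79.0 and 86.1 CPM in the other tumor cells (log2 fold change -0.11 ± 0.17). At 2000 UMIs an Esr1 UMI was found in 9.72% (3.999 to 19.01%) and 12.02% (7.69 to 17.6%) of cluster 13 cells, against 10.9% and 12.8%. Gata3, a luminal master regulator, also had levels that overlapped, at 94.6 and 126 CPM against 147 and 89.0 CPM. The glucocorticoid receptor Nr3c1 was lower, with 17.1 and 22.1 CPM against 60.2 and 60.5 CPM, as was Tfap2c, with 27.3 and 31.1 CPM against 116 and 138 CPM.

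Ligands that hormone-sensing cells send to their neighbours were higher in 3 of the 6 members that passed the filter, and none was lower. For all genes tested the shares were 5.34% higher and 4.52% lower. Wnt4, a progesterone-induced Wnt ligand, had 130 and 143 CPM in cluster 13, against 2.53 and 2.80 CPM in the other tumor cells (log2 fold change 5.68 ± 0.22). Ptn, a growth factor that binds heparin, had 215 and 380 CPM, against 4.71 and 7.60 CPM, and 10 cells held 99.2% and 60.0% of its UMIs. Cxcl15, a chemokine of lung epithelium in mouse, had 6.82 and 138 CPM, against 0.218 and 0.485 CPM. Wnt4 was thus even between the mice, while Cxcl15 rested on mouse 2 (8 UMIs in mouse 1 and 323 in mouse 2) and missed the limit in mouse 1 after thinning. Areg, the EGF receptor ligand that relays estrogen, had 874 and 1552 CPM in cluster 13, against 625 and 223 CPM in the other tumor cells, and did not reach 2-fold in mouse 1. Tnfsf11 (Rankl) had 0 UMIs in cluster 13 and 4 and 0 in the other tumor cells, so at this depth it was not detected in cluster 13 and nearly not elsewhere. In all 8 of the 15 listed ligands had no UMI in cluster 13.

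Keratins, surface proteins and junction genes described an epithelial cell with some changed members. Krt7 was higher with Krt19, at 1143 and 1503 CPM in cluster 13, against 276 and 459 CPM in the other tumor cells. Krt8, whose promoter drives the Cre of the label, had 7334 and 6286 CPM, against 4783 and 6327 CPM, and its partner Krt18 had 6510 and 5808 CPM, against 4107 and 5875 CPM, so both overlapped. The label's own keratin thus did not set the cluster apart. Krt23 was lower, at 12.8 and 10.2 CPM against 38.9 and 63.0 CPM. Among 10 surface and other mature luminal genes 7 were higher and none lower, against 5.34% and 4.52% of all genes tested. Their median log2 fold change was 2.53. Ly6a (Sca-1), a surface antigen used to sort hormone-receptor-positive luminal cells in mouse, had 1527 and 1843 CPM, against 248 and 44.0 CPM. Ly6d, of the same family, had 1966 and 3164 CPM, against 104 and 85.7 CPM, and S100a6, a calcium-binding protein, had 13766 and 15157 CPM, against 2372 and 2234 CPM. Stc2, a secreted stanniocalcin that estrogen induces in human breast cancer cells, had 144 and 218 CPM, against 0.236 and 0.503 CPM. All 4 genes had both cluster 13 values above both values of the other tumor cells. Of 12 adhesion and tight junction genes Cldn4 (4114 and 3901 CPM, against 1196 and 1494 CPM) and Dsp were higher and Cldn1 (14.5 and 20.01 CPM, against 72.5 and 146 CPM) was lower. The remaining 9, Epcam and Cdh1 among them, stayed within 2-fold in at least 1 mouse.

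Krt6a stood apart among the basal keratins. It had 591 and 676 CPM in cluster 13, against 0.527 and 6.58 CPM in the other tumor cells (log2 fold change 8.11 ± 0.72), and a UMI at 2000 UMIs in 52.8% (40.7 to 64.7%) and 42.1% (34.8 to 49.6%) of cells, against 0.0662% and 0.484%. In skin Krt6a is a keratin of wounds and hair follicles. Of the 10 basal and myoepithelial genes that passed the filter none was lower in each mouse, against 4.52% of all genes tested. Krt14 had 17.1 and 66.0 CPM in cluster 13, against 8.97 and 56.4 CPM in the other tumor cells, and 10 cells held 100% of its UMIs in each mouse. Krt5 had 0 and 6 UMIs in cluster 13 and 2 and 6 in the other tumor cells. Smooth muscle actin, Acta2, had 2.56 and 4.26 CPM, against 35.0 and 12.2 CPM, and did not reach 2-fold lower in mouse 2.

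Of the 15 genes with the highest fold changes at 50 CPM or more in cluster 13 of each mouse, R3hdml, a secreted protein of the CAP superfamily, was even between the mice. It had 325 and 353 CPM in cluster 13, against 0.109 and 0.180 CPM in the other tumor cells (log2 fold change 11.16 ± 0.28), and a UMI at 2000 UMIs in 44.4% and 42.1% of cells, against 0.0662% and 0.0726%. Fam25c had 746 and 654 CPM, against 0.582 and 1.19 CPM, and was found in 65.3% and 55.7% of cells, against 0.0993% and 0.242%. Both genes thus reached a large part of cluster 13 and almost no other tumor cell at this depth. Pcp4, a calmodulin-binding peptide known from neurons, had 489 and 918 CPM, against 0.728 and 0.557 CPM. Ffar4, a receptor for long-chain fatty acids, had 244 and 138 CPM, against 0.455 and 0.287 CPM. Ido1, which breaks down tryptophan, had 61.4 and 301 CPM, against 0.0364 and 0.144 CPM, and 10 cells held 84.7% and 53.5% of its UMIs. The 3 genes were at most a trace outside cluster 13, and Ido1 sat in fewer cells of it. Il18r1, a chain of the interleukin 18 receptor, had 114 and 256 CPM, against 0.309 and 0.449 CPM. Fxyd2, a regulator of the sodium pump, had 323 and 416 CPM, against 0.8003 and 1.56 CPM. Tnip3, an inhibitor of NF-kappaB signalling, had 336 and 365 CPM, against 0.546 and 0.575 CPM. Between the mice Tnip3 and Fxyd2 were close, while Il18r1 was higher in mouse 2. The 10 cells with the most UMIs held 83.0% and 41.3% of the Tnip3 UMIs and 79.7% and 52.5% of the Fxyd2 UMIs. They held 72.1% and 54.8% for Pcp4 and 72.8% and 45.0% for Crabp1. The shares were lower for Ffar4 (48.6% and 29.8%) and Il18r1 (42.5% and 19.9%). Dmbt1, a mucosal defence protein, had 217 and 132 CPM, against 0.0182 and 0.341 CPM, but 10 cells held 98.8% and 83.9% of its UMIs. Plac8 and Crabp1, which binds retinoic acid, completed the 15 with log2 fold changes of 9.58 ± 0.43 and 9.40 ± 0.59, beside Stc2, Fgb, Upk3a and Cited1.

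Liver-type plasma proteins split in direction. Fibrinogen's gamma chain gene Fgg was higher with Fgb, at 1691 and 401 CPM in cluster 13, against 24.9 and 9.99 CPM in the other tumor cells, while Fga, the alpha chain, had 1 and 0 UMIs in cluster 13 and none in the other tumor cells. Haptoglobin, Hp, had 138 and 296 CPM, against 14.5 and 66.9 CPM. Saa1, Saa2, Lbp and Ltf were lower, so of 8 members 3 were higher and 4 lower, against 5.34% and 4.52% of all genes tested. Lactoferrin, Ltf, which binds iron, had 0.853 and 2.55 CPM in cluster 13, against 108 and 157 CPM in the other tumor cells (log2 fold change -6.17 ± 0.31). Saa1, an acute-phase apolipoprotein, had 1.71 and 154 CPM, against 183 and 613 CPM. In mouse 2 10 cells held 99.4% of its UMIs in cluster 13, and mouse 1 had only 2 UMIs. Of 6 uroplakins only Upk3a passed the filter. Upk2 had 12 and 43 UMIs in cluster 13 and 32 and 17 UMIs in the far larger sums of the other tumor cells, and Upk1a, Upk1b, Upk3b and Upk3bl had at most 4 UMIs in cluster 13 of either mouse.

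Ion and water channels and pumps were higher in 4 of 8 members that passed the filter, and none was lower. The shares over all genes tested were 5.34% higher and 4.52% lower. Scnn1a, the alpha subunit of the epithelial sodium channel, had 69.1 and 65.6 CPM in cluster 13, against 5.35 and 4.46 CPM in the other tumor cells. Slc12a2, the sodium, potassium and chloride cotransporter, had 1127 and 1929 CPM, against 193 and 164 CPM. Aqp3, a channel for water and glycerol, had 77.6 and 119 CPM, against 7.60 and 10.2 CPM. Clca1, a secreted modulator of chloride channels, had 51 and 16 UMIs in cluster 13, 10 cells holding 98.0% and 100% of them, and 43.5 and 6.81 CPM, against 0.0182 and 0.0359 CPM. The first 3 genes were spread over more of the cluster than Clca1 was.

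**Figure D4:**
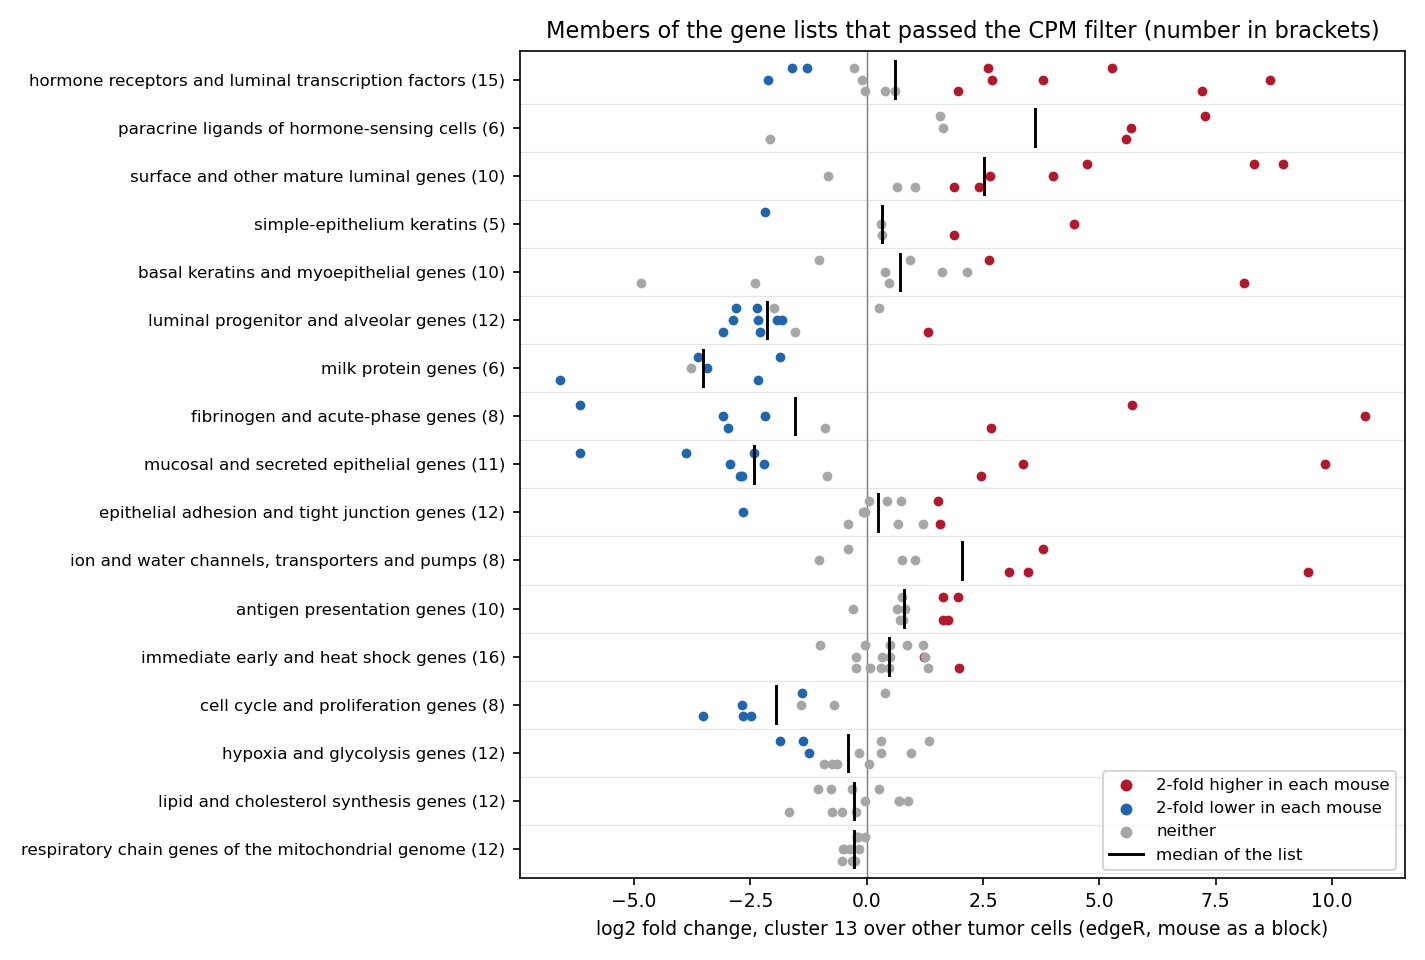
Log2 fold change, cluster 13 over the other tumor cells, for the members of 17 gene lists that passed the filter of a mean of 10 CPM, 1 point per gene, red for at least 2-fold higher and blue for at least 2-fold lower in each mouse, with a black bar at the median. Luminal progenitor, milk protein and proliferation genes lie mostly to the left, surface and other mature luminal genes mostly to the right, and lipid synthesis and mitochondrial genes near 0.

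What the cluster lacked was the secretory program of the other luminal branch. Of 12 luminal progenitor and alveolar genes 8 were lower (Elf5, Cd14, Lcn2, Trf, Sox10, Folr1, Mfge8 and Tspan8) and 1, Sox9, was higher, with a median log2 fold change of -2.14. Of 6 milk protein genes 5 were lower and none higher, with a median of -3.52. Over all genes tested 4.52% were lower and 5.34% higher. Lcn2, an antimicrobial protein that binds iron carriers of bacteria, had 1153 and 1381 CPM in cluster 13, against 11372 and 10106 CPM in the other tumor cells (log2 fold change -3.09 ± 0.19). Csn3, kappa casein, had 318 and 340 CPM, against 2931 and 4224 CPM. Trf, transferrin, had 322 and 372 CPM, against 3234 and 1994 CPM. All 3 were lower in both mice with no overlap, and what remained in the cluster lay in few cells: the 10 cells with the most UMIs held 96.1% and 76.3% of Lcn2, 98.1% and 75% of Csn3 and 96.6% and 76.1% of Trf. Whether those cells are doublets or hold free RNA was not tested. Among the 18 clusters, cluster 13 ranked 18 and 18 for Lcn2, 16 and 18 for Csn3 and 17 and 18 for Trf. In plain CPM cluster 10 of mouse 1 had 110 for Csn3 and 309 for Trf, against 306 and 310 in cluster 13 of that mouse. In mouse 2 cluster 10 had 4315 and 1310. Elf5, the transcription factor of the alveolar lineage, had 29.8 and 26.0 CPM, against 155 and 120 CPM, and Sox10, a progenitor and neural crest factor, had 26.4 and 23.4 CPM, against 131 and 124 CPM. Lalba, which makes lactose synthase work, had 14.5 and 25.1 CPM, against 202 and 288 CPM. Csn1s1, an alpha casein, had 1 UMI in cluster 13 of both mice together and 3052 in the other tumor cells, a share of UMIs in the other tumor cells that was 104 times that in cluster 13 (counting interval 18.6 to 4100). Csn2, beta casein, had 0 UMIs in cluster 13, against 154 and 181 UMIs.

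Other secreted proteins were lower too. Of 11 mucosal and secreted epithelial genes 7 were lower and 3 (Dmbt1, Clu and Wfdc2) higher, against 4.52% and 5.34% of all genes tested. Spp1, osteopontin, had 12.8 and 136 CPM in cluster 13, against 603 and 1018 CPM in the other tumor cells. Chil1, a chitinase-like protein, had 11.1 and 116 CPM, against 677 and 905 CPM. Both were lower in each mouse, with cluster 13 of mouse 2 the higher of the 2 sums and 94.0% and 96.0% of its UMIs in 10 cells. Slpi, a protease inhibitor, had 43.5 and 24.7 CPM, against 573 and 237 CPM, and Wfdc2, of the same protein family, was higher, with 2647 and 4624 CPM against 217 and 528 CPM. Clusterin, Clu, had 2119 and 881 CPM, against 232 and 270 CPM. Further genes among the 15 lowest were Pgf, Col11a1, Scgb2b27, Car6, Ccn2 and the proton pump subunits Atp6v1b1 (5.12 and 7.66 CPM, against 50.7 and 72.0 CPM) and Atp6v1c2 (7.67 and 14.1 CPM, against 106 and 86.5 CPM).

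Cycling genes were low in cluster 13. Of 8 that passed the filter 5 were lower and none higher, against 4.52% and 5.34% of all genes tested. The median log2 fold change of the 8 was -1.94. Mki67, a protein of dividing nuclei, had 4.26 and 2.98 CPM in cluster 13, against 20.7 and 54.7 CPM in the other tumor cells. Top2a, which untangles DNA, had 2.56 and 5.53 CPM, against 18.5 and 33.6 CPM, and Cdk1, the mitotic kinase, 1.71 and 3.83 CPM, against 14.3 and 22.5 CPM. The counts behind these are small, 5 and 7 UMIs for Mki67 in cluster 13, and an Mki67 UMI at 2000 UMIs was found in 0 of 72 cells, which allows a share of cells with a UMI of up to 4.17% at 3 counts (exact upper limit 4.99%), and in 1.09% of 183 cells, against 2.12% and 4.11%. Several clusters of the reference had levels as low: cluster 13 ranked 11 and 15 of 18 for Mki67. None of 11 cyclin D1, Myc and cell cycle inhibitor genes reached 2-fold in each mouse. Ccnd1 had 307 and 344 CPM, against 314 and 184 CPM, and Cdkn1a, the p21 inhibitor, 367 and 356 CPM, against 337 and 273 CPM.

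EGF receptor, Notch, metabolic and stress genes differed in how many members passed 2-fold in each mouse. The EGF receptor and ligand list had 2 higher and 1 lower of 8 tested, and the hypoxia and glycolysis list had 3 lower of 12. The immediate early and heat shock list had 2 higher of 16, while the Notch and lipid synthesis lists had none. Over all genes tested 5.34% were higher and 4.52% lower. The median log2 fold change was 0.63 over 8 EGF receptor and ligand genes, 1.05 over 5 Notch genes, 0.49 over 16 immediate early and heat shock genes, -0.40 over 12 hypoxia and glycolysis genes and -0.27 over 12 lipid synthesis genes, against -0.02 over all genes. Egfr was lower, at 13.6 and 8.09 CPM in cluster 13, against 57.5 and 43.7 CPM in the other tumor cells, and its ligands Btc and Epgn were higher, Btc not after thinning and Epgn not with plain CPM. None of the lipid synthesis genes passed in each mouse, and neither did any of the Notch genes, although all 13 listed summed to 425 and 441 CPM, against 233 and 272 CPM. Hes1, a Notch target, had 245 and 256 CPM, against 129 and 114 CPM, just short of the limit in mouse 1. Among the hypoxia and glycolysis genes the glucose carrier Slc2a1 (105 and 85.6 CPM, against 242 and 207 CPM), Pfkp and Car9 were lower. With equal weight for each cluster of the reference Slc2a1 and Car9 missed the limit, and Pfkp did after thinning. Among the immediate early and heat shock genes, which also respond to tissue digestion, Atf3 (787 and 1049 CPM, against 171 and 312 CPM) and Dnajb1 were higher, Dnajb1 not after thinning, with plain CPM or with equal weight for each cluster. The 12 respiratory chain genes of the mitochondrial genome all stayed within 2-fold, with a median log2 fold change of -0.28.

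Antigen presentation genes were higher in 4 of 10 and lower in none, beside a mixed interferon response. The shares over all genes tested, for both lists, were 5.34% higher and 4.52% lower. The immunoproteasome subunit Psmb8 had 500 and 519 CPM in cluster 13, against 220 and 122 CPM in the other tumor cells. Tap2, which carries peptides into the endoplasmic reticulum, had 89.5 and 236 CPM, against 41.8 and 36.4 CPM. Psmb8 and Tap2 missed 2-fold in a mouse after thinning to 2000 UMIs, and Tap2 and Psmb9 did with plain CPM or with equal weight for each cluster. H2-Q7, a class I molecule from a family of near-identical genes and so uncertain in its counting, had 217 and 98.8 CPM, against 74.2 and 25.3 CPM. Of 10 interferon response genes Usp18 was higher and Ifit1 and Ifi27l2a were lower, Usp18 not with equal weight for each cluster and Ifit1 not after thinning. Among chemokines and cytokines Il33, an alarmin of epithelial nuclei, had 151 and 94.9 CPM, against 1.84 and 1.17 CPM (log2 fold change 6.35 ± 0.24), and 10 cells held 79.7% and 57.0% of its UMIs. In cluster 6, which the reference leaves out, Il33 had 27.9 and 84.9 in plain CPM, so in mouse 2 cluster 6 came close to cluster 13. Cxcl5, which attracts neutrophils, was lower, at 0.853 and 2.98 CPM against 30.7 and 43.3 CPM.

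Markers of other cell types were measured beside these results. Of 12 fibroblast genes only 3 passed the filter: Dcn had 27.3 and 238 CPM in cluster 13, against 1.07 and 1.60 CPM in the other tumor cells, Col6a3 had 12.8 and 93.2 CPM, against 0.873 and 0.108 CPM, and Mgp did not reach 2-fold in each mouse. The defining collagens were near 0, with 0 and 2 UMIs of Col1a1 and none of Col1a2 and Col3a1 in cluster 13, and the whole list summed to 152 and 398 CPM, against 89.4 and 19.6 CPM. The part of fibroblast RNA in the levels of Dcn and Col6a3 was not tested. The 10 endothelial and pericyte genes summed to 55.8 and 53.0 CPM, against 15.1 and 34.2 CPM, nearly all of it Notch3, with 6 of 10 at 0 in cluster 13. The 10 macrophage and neutrophil genes summed to 9.02 and 39.3 CPM, against 54.4 and 188 CPM, and the 11 T, NK and B cell genes to 12.3 and 9.10 CPM, against 0.481 and 1.43 CPM, mostly Trbc2 with 15 and 20 UMIs. The adipocyte, erythroid and Schwann cell list summed to 12.3 and 7.45 CPM, against 0.981 and 40.4 CPM. Cells with UMIs of at least 3 genes of one such list were 1 and 3 in cluster 13 and 22 and 27 in the other tumor cells; without them 404 genes were higher and 339 lower.

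The study compared cluster 6 with cluster 13, whereas the reference here leaves cluster 6 out, so the 2 comparisons answer different questions. Of the 20 genes that the study names for its single-cell comparison, 17 passed the filter. In cluster 13, 3 of these were higher here (Krt7, Krt19 and Foxa1) and 6 lower (Spp1, Sox10, Nes, Mia, Pmp22 and Cd44). For all genes tested the shares were 5.34% and 4.52%. The study chose these genes on the same samples, so the count is no independent evidence. Nes, an intermediate filament of neural progenitors, had 13.6 and 12.8 CPM in cluster 13, against 54.9 and 65.5 CPM in the other tumor cells. Cd44, a hyaluronan receptor, had 52.9 and 58.8 CPM, against 148 and 151 CPM, and Mia had 35.8 and 26.0 CPM, against 126 and 81.0 CPM. Vim had 5.12 and 10.2 CPM, against 107 and 19.98 CPM, and did not reach 2-fold lower in mouse 2. Cdh1, E-cadherin, had 560 and 603 CPM, against 338 and 389 CPM, and Epcam 4584 and 4083 CPM, against 6697 and 4879 CPM, both within 2-fold.

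Set against each of the other 17 clusters in turn, cluster 6 included, cluster 13 had the highest CPM in each mouse for 371 of 7586 genes (4.89%; plain CPM of each cluster's sum), and 259 of these were also 2-fold higher than the other tumor cells. All 6 markers and all 15 leading genes were among them, but they were picked for high levels in cluster 13, so this adds no evidence. The distance to the next cluster varied: Krt19 stood at 531.6 and 914 CPM in cluster 0, the next highest in each mouse, and Foxa1 at 15.7 and 30.0 CPM in cluster 10, while R3hdml reached no more than 2.97 CPM in any other cluster of mouse 1 and 1.90 CPM in any other cluster of mouse 2. Higher genes outside these 259 had a level as high or higher in another cluster in at least 1 mouse. Examples were Dsp, higher in cluster 10 in each mouse, and Ptn, higher in cluster 15 of mouse 2 (1038 CPM). Dcn was higher in cluster 6 in both mice. Atf3 was higher in cluster 9 (2392 and 3183 CPM, against 757 and 1019 CPM in cluster 13). Psmb8 was higher in cluster 17 (591 and 656 CPM, against 481 and 504 CPM), as were Psmb9 and Usp18 in each mouse. Gpx3 was higher in cluster 6 of mouse 1. By the log CPM of all genes tested, cluster 13 was most like cluster 10 (r = 0.853 in mouse 1 and 0.842 in mouse 2) and next like cluster 0 (0.842 and 0.839), across genes, which are not independent replicates. Cluster 13 of mouse 1 and of mouse 2 were more alike than that (r = 0.958).

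**Figure D5:**
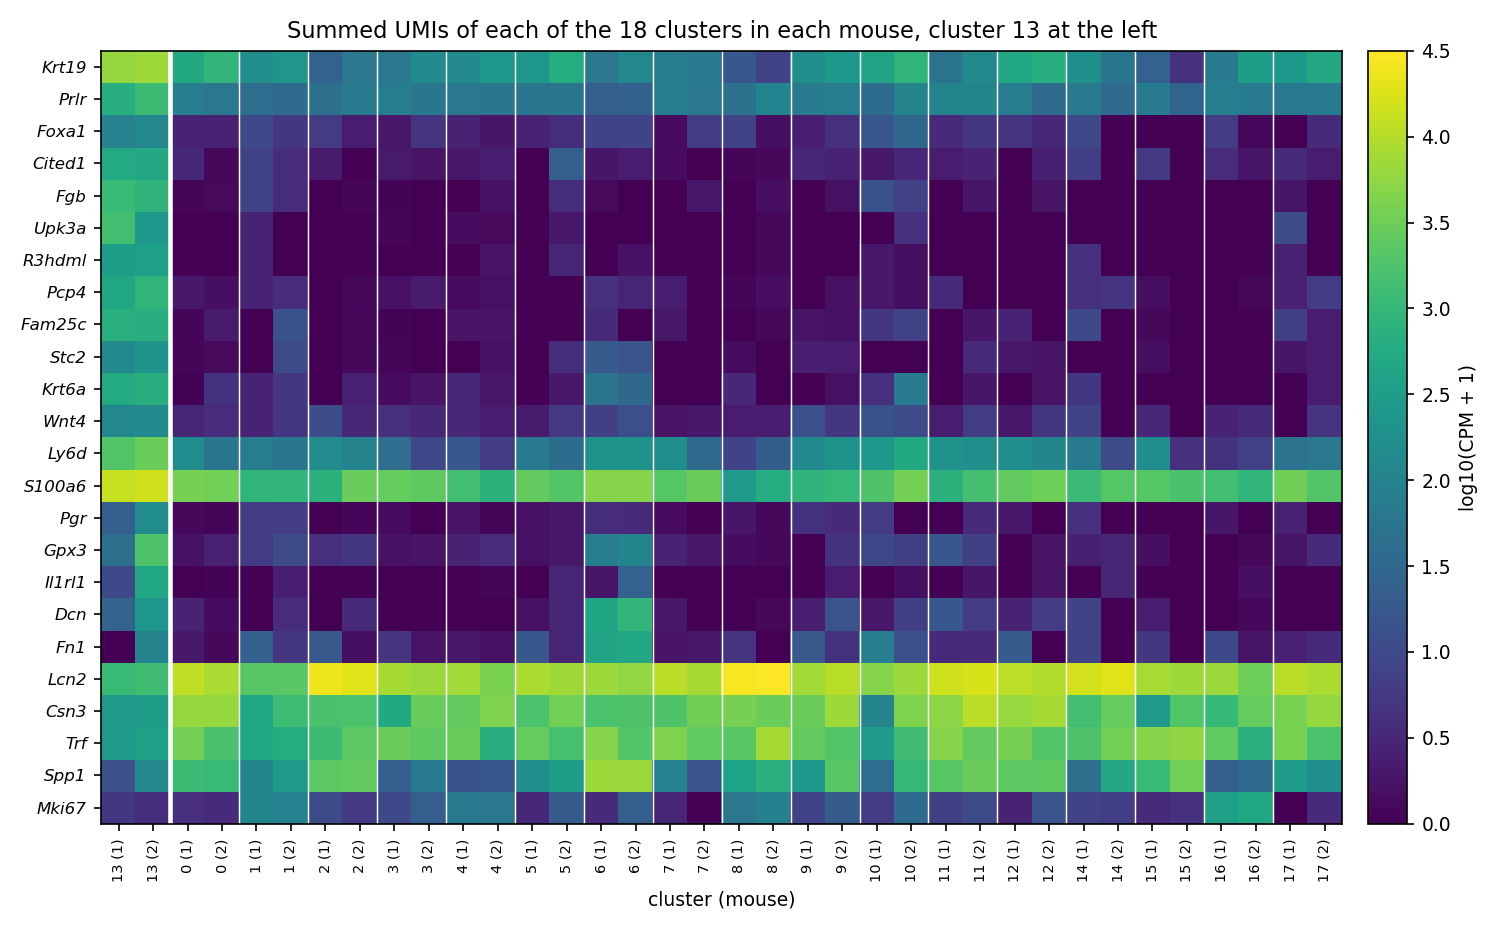
Plain CPM, as log10 of CPM plus 1, of 24 genes in the summed UMIs of each of the 18 clusters and 2 mice, with cluster 13 in the 2 columns at the left. The upper rows are bright at the left in both mice, Pgr, Gpx3, Il1rl1, Dcn and Fn1 are brighter in mouse 2 of cluster 13 than in mouse 1, and Lcn2, Csn3, Trf and Spp1 are dimmer there than in most clusters.

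Some genes of the cluster differed widely between the tumors. With 1 sum per mouse there is no replicate within a mouse, so the following are values with exact Poisson 95% intervals for counting error. Relative to the same ratio in the other tumor cells, 315 genes differed by 2-fold or more between cluster 13 of mouse 1 and of mouse 2. Gpx3, an extracellular glutathione peroxidase, had 46.9 CPM (35.3 to 61.0) in cluster 13 of mouse 1 and 1801 CPM (1748 to 1857) in that of mouse 2, against 1.2005 and 2.32 CPM in the other tumor cells. At 2000 UMIs it was found in 4.17% of 72 cells of mouse 1 and in 66.1% (58.8 to 72.9%) of 183 cells of mouse 2, against 0.199% and 0.315%. Il1rl1, the receptor of Il33, had 9.38 CPM (4.68 to 16.8) and 489 CPM (461 to 518), and at 2000 UMIs a UMI in 0 of 72 cells (exact upper limit 4.99%) and in 16.9% (11.8 to 23.2%). Both genes were far higher in mouse 2, Gpx3 across most cells and Il1rl1 in a minority. Tph1, which starts serotonin synthesis, had 0.853 CPM (0.0216 to 4.75) in mouse 1 and 222 CPM (204 to 242) in mouse 2, and Aoc1, a diamine oxidase, had 0 UMIs in mouse 1 and 125 CPM (111 to 140) in mouse 2. Fn1, fibronectin, had 0 UMIs in mouse 1 (upper limit 3.02 CPM) and 107 CPM (94.1 to 121) in mouse 2, against 5.51 and 1.44 CPM in the other tumor cells, and 10 cells held 64.5% of it. Dcpp3 had 0 UMIs in mouse 1 and 76.6 CPM in mouse 2, all in 10 cells.

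In the other direction Upk3a had 1437 CPM (1369 to 1507) in cluster 13 of mouse 1 and 260 CPM (239.5 to 281) in that of mouse 2. Ccn2, a matricellular protein that Yap induces, had 69.1 CPM (54.8 to 85.8) and 2.98 CPM (1.198 to 6.14), against 245 and 115 CPM in the other tumor cells. All 81 of its cluster 13 UMIs in mouse 1 lay in 10 cells or fewer, and mouse 2 had only 7 UMIs, too few for that measure. At 2000 UMIs Ccn2 was found in 1 of 72 and 0 of 183 cells. Lgals3, galectin 3, had 3223 and 2145 CPM, against 289 and 943 CPM, so that most of its relative difference came from the other tumor cells. The same holds for Mt2, a metallothionein, with 539 and 444 CPM in cluster 13 and 62.8 and 178 CPM in the other tumor cells, and for Scd1, a fatty acid desaturase, with 205 and 274 CPM in cluster 13 and 224 and 1047 CPM in the other tumor cells. Rtp4, an interferon-induced chaperone, had 70.8 and 13.6 CPM in cluster 13, against 43.8 and 34.8 CPM.

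Within the cluster, the genes did not all share cells. These pairs were chosen after the values were seen, and the shares are descriptions at 2000 UMIs per cell. In mouse 1 a Pcp4 UMI was found in 62.1% of the 29 cells with Upk3a and in 16.3% of those without, whereas in mouse 2 it was found in 3.57% of the 28 cells with Upk3a and in 27.7% of those without. Cited1 went with Upk3a in both mice, being found in 69.0% of cells with Upk3a against 41.9% without in mouse 1, and in 85.7% against 28.4% in mouse 2. Pcp4 and Cited1 met in mouse 1 (72.0% of cells with Pcp4 against 42.6% without) and seldom in mouse 2 (9.09% against 46.0%). Cells with Pcp4 thus held the other genes more often in mouse 1 and less often in mouse 2, while cells with Upk3a held Cited1 more often in each. Prlr was spread evenly with respect to Cited1, which was found in 53.2% of cells with Prlr against 52.0% without in mouse 1 and in 36.2% against 40.5% in mouse 2. In mouse 2 Il1rl1 was found in 50% of cells with Upk3a and in 11.0% of those without.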

How the data were processed

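For each mouse the authors deposited a matrix of UMI counts over 32285 genes, not normalised, from Cell Ranger 6.0.1 on mm10, and the authors' deposited annotation gives each cell's cluster, the mitochondrial fraction of UMIs and a VAM signature score. For it, in Seurat (version 4.0.3 by the submitters' notes), they removed doublets with scDblFinder, integrated and clustered both mice together, and dropped immune clusters. Here cells were joined by mouse and barcode, and UMIs were summed per mouse and group. The libraries held 63140346 and 61529883 UMIs. edgeR 4.0.16 (R 4.3.3) gave TMM factors and a quasi-likelihood fit in which each mouse was a block, since both sums of a pair come from the same animal (r of the mouse differences of cluster 13 and of the other tumor cells 0.281 across 7586 genes); the fit had 1 residual degree of freedom. The fold rule and the fit were also run on simulated counts with the same gene shares in both mice and no clustering step. That run cannot speak to clusters drawn from the same cells or to differences between the mice. Alternatives changed the scaling, the filter, the pseudocount, the depth, the weight of clusters and the test. Positions are from GENCODE vM21 and RefSeq, both on GRCm38.

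Named genes were the 6 markers, the 15 highest and 15 lowest fold changes among genes with at least 50 CPM in both sums of the higher side, up to 5 members of each of 32 gene lists, the genes the study names for these data, and the 6 genes with the largest difference between the mice in each direction. Members and lists were chosen with earlier results of these data known. Other list members with values, such as Esr1, Areg, Gata3, Stat5a, Elf5, Hp and Clu, and Fga, Upk2, Csn2 and Tnfsf11 below the filter, were named after their values were seen. Precision follows the UMIs in cluster 13, of which it held far fewer than the other tumor cells. Because the groups are clusters, with 2 mice (smallest exact paired p 0.5), no test is reported. Results that need an item withheld from the text are not reported here.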

Additional observations from a re-analysis of the deposited data

How the results depend on the processing

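The counts of 405 higher and 343 lower genes held within 1.5 times under DESeq2 size factors, plain CPM (364 and 377, with a median log2 ratio over all genes of -0.10 in place of -0.01), other filters on low genes, a pseudocount of 1 CPM, thinning of each cell to 2000 UMIs, equal weight for each cluster, and without cells that carry genes of other cell types. The genes behind the counts changed more than the counts did. After thinning, 405 genes were higher and 419 lower, of which 317 and 275 were among the main 405 and 343. With equal weight for each cluster 372 and 317 of the main genes remained. The other filters kept more genes than the main one: 13964 (486 higher and 417 lower) and, without a filter, 21705 (467 and 432). A pseudocount of 20 CPM left 235 higher and 146 lower genes. Counted by an adjusted p under 0.05 in place of the fold rule, which is no test of clusters drawn from the same cells, there were 1078 higher and 1024 lower genes by edgeR with the replicate block, 643 and 478 without the replicate block, and 811 and 686 by DESeq2. In 1 mouse alone, leaving the other out, 552 to 578 genes were higher and 473 to 585 lower, and 548 to 754 genes were highest of the 18 clusters. No named gene counted as higher or lower changed direction. After thinning to 2000 UMIs 10 named genes missed 2-fold in a mouse (Btc, Cxcl15, Dnajb1, Ifit1, Il1rl1, Lgals3, Pfkp, Psmb8, Stmn1 and Tap2), with equal weight for each cluster 6 did, with plain CPM 4, and without cells of other types 2 (Btc and Fabp5); the cause was not tested. Cluster 13 of mouse 1 rests on 73 cells, so low genes there are the least certain.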

Other observations

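Barcodes in the matrices without an annotation were outside every comparison. At least 4 of the 6 markers of cluster 13 had a UMI in 1 of 2346 such barcodes of mouse 1 (14417 UMIs, 21.1% of them mitochondrial) and in 2 of 2208 of mouse 2 (median 28703 UMIs and 4.596% mitochondrial), while the median barcode without annotation had 1280 and 1160 UMIs and was 85.7% and 72.4% mitochondrial.

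Some genes of cluster 13 outside the lists were among the 371 that were highest of all 18 clusters, and they were picked after their values were seen. Wnt7b, a Wnt ligand, had 154 and 155 CPM, against 25.8 and 11.7 CPM. Fgfr2, a receptor for fibroblast growth factors, had 64.8 and 87.3 CPM, against 2.49 and 6.99 CPM, and Icam1, an adhesion molecule for leukocytes, had 89.5 and 97.1 CPM, against 5.42 and 3.20 CPM. Cxcl17, a chemokine of mucosal surfaces, had 254 and 143 CPM, against 7.22 and 8.86 CPM. Glul, glutamine synthetase, had 231 and 910 CPM, against 7.40 and 6.31 CPM, and Slc5a5, the sodium iodide carrier, had 8.53 and 199 CPM, against 0.4002 and 1.19 CPM, both with the higher level in mouse 2.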
